A study of Mus musculus with 10 samples.

Results

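Of the 48795 genes in a table of RNA-seq counts from adult mouse neural progenitor cultures, 9 mark successive steps of the oligodendrocyte lineage: Pdgfra, Cspg4, Sox10, Nkx2-2, Gpr17, Bcas1, Mbp, Cnp and Myrf. They were taken by symbol from a list of lineage markers that runs from precursors to myelinating cells, and each was matched to the table by its Ensembl gene identifier. The cultures came from the subependymal zone, the stem cell niche along the lateral ventricle, of 10-week-old mice. The mice were wild type (WT) or lacked Cdkn1b, the gene for the cyclin-dependent kinase inhibitor p27 (p27KO; from the Jackson Laboratory, kept on C57BL/6J).

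Each genotype was sampled in 2 states, proliferation (PRO) and the start of differentiation (DIFF). PRO libraries came from neurospheres after 3 days in vitro (DIV) with epidermal growth factor (EGF, 20 ng/ml) and fibroblast growth factor (FGF, 10 ng/ml), as the labels and the study's methods state; its results text gives 5 days. For DIFF, cells were plated on Matrigel with FGF for 2 days. Mitogens were then withdrawn, 2% fetal bovine serum was given, and RNA was taken 24 h later (2 + 1 DIV). There were 3 WT PRO, 3 WT DIFF, 2 p27KO PRO and 2 p27KO DIFF libraries of polyadenylated RNA, with 19190068 to 25291674 counts each. Levels are given as CPM, the count of a gene per 1000000 counts of its library, with means ± SD. Plating, serum, loss of mitogens and time changed together between PRO and DIFF, so their parts cannot be told apart. Nothing in the labels says whether libraries of a group came from separate animals, so the p-values measure the spread between these libraries.

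As background, oligodendrocyte precursors divide in response to platelet-derived growth factor, which they sense through the receptor encoded by Pdgfra, and they carry the proteoglycan NG2, the product of Cspg4. Olig1, Olig2, Sox10 and Nkx2-2 encode transcription factors of the lineage. As precursors leave the cell cycle they pass through a committed state marked by Gpr17 and Bcas1, and Myrf then switches on genes of the myelin sheath such as Mbp.

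The targeted gene was examined first. Cdkn1b was at 103, 105 and 112 CPM in WT PRO libraries 1 to 3 and at 207, 205 and 209 CPM in WT DIFF libraries 1 to 3. It was at 114 and 90.7 CPM in the p27KO PRO libraries and at 140.2 and 137 CPM in the p27KO DIFF libraries. Counts of the gene were thus not lost in the libraries labelled p27KO. The counts are per gene, so whether they fall in the deleted stretch cannot be seen. At 2 + 1 DIV both p27KO libraries lay below all 3 WT libraries, with a log2 fold change of −0.56 (SE 0.09) and an adjusted p of 0.012 in the edgeR quasi-likelihood test with Benjamini-Hochberg adjustment. Without p27KO DIFF 1 the adjusted p was 0.114, and without p27KO DIFF 2 it was 0.152 (range over its alternatives 4.4e-06 to 0.152). The free-text description of the p27KO libraries reads WT, whereas their titles and genotype fields read p27KO, so they are called libraries labelled p27KO.

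The genotypes also differed in sex. Xist, the RNA of the inactive X chromosome, was at 1.16 to 2.57 CPM in the 6 WT libraries and at 2258 to 3595 CPM in the 4 libraries labelled p27KO. The Y-linked gene Ddx3y was at 51.6 to 109 CPM in WT and at 0.0450 to 0.124 CPM in p27KO. The other Y-linked genes examined, Eif2s3y, Kdm5d and Uty, were at 31.1 CPM or more in each WT library and at 0.225 CPM or less in each p27KO library. Genotype and sex therefore cannot be told apart in any comparison between genotypes.

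The label of the set was checked against defining genes of the lineage. Olig1 was at 1352, 1377 and 1021 CPM in WT PRO and at 668, 589 and 711 CPM in WT DIFF, and Olig2 was at 786, 816 and 681 CPM in WT PRO and at 277, 231 and 289 CPM in WT DIFF. Sox10, in contrast, never exceeded 10 counts in a library, and Mbp never exceeded 37 counts. Mag, Mog, Mobp and Opalin, which belong to mature myelinating cells, stayed below 1 CPM in all 10 libraries. The 9 genes are therefore described as markers measured in progenitor cultures. The RNAs of Sox10, Mbp, Mag, Mog, Mobp and Opalin were low there, which does not hold for all genes linked to myelin. Of 29 genes of myelin and mature oligodendrocytes, 12 had enough counts to be tested and 17 did not. The myelin enzyme gene Cnp was at 55.9 to 112 CPM across the libraries.

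Of the 9 markers, 7 passed the filter on low counts and were tested among 12859 genes. Sox10 and Mbp did not pass. From PRO to DIFF in WT, Pdgfra and Gpr17 rose and Cspg4, Bcas1 and Nkx2-2 fell, whereas Cnp and Myrf did not pass the test. The 2 rises compare with 33.5% of all genes tested that rose, and the 3 falls with 33.9% that fell. In the libraries labelled p27KO, Cspg4 and Bcas1 fell, 2 falls against 30.2% of all genes. In p27KO 0 markers rose by edgeR, against 27.5% of all genes, with 0 at an unadjusted p under 0.05 and 0 by DESeq2. Pairing p27KO libraries of different numbers as a block, a choice made after seeing the data, gave 1 rise in p27KO. Counts this small are not set apart from those of all genes. Leaving out a library at a time gave 0 to 2 rises and 2 to 3 falls in WT, and 0 to 1 rises and 1 to 3 falls in p27KO, with the libraries named at each gene. The median log2 fold change of the 7 markers was −0.37 in WT and −0.67 in p27KO, beside −0.00 and −0.03 over all genes tested.

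**Figure D1:**
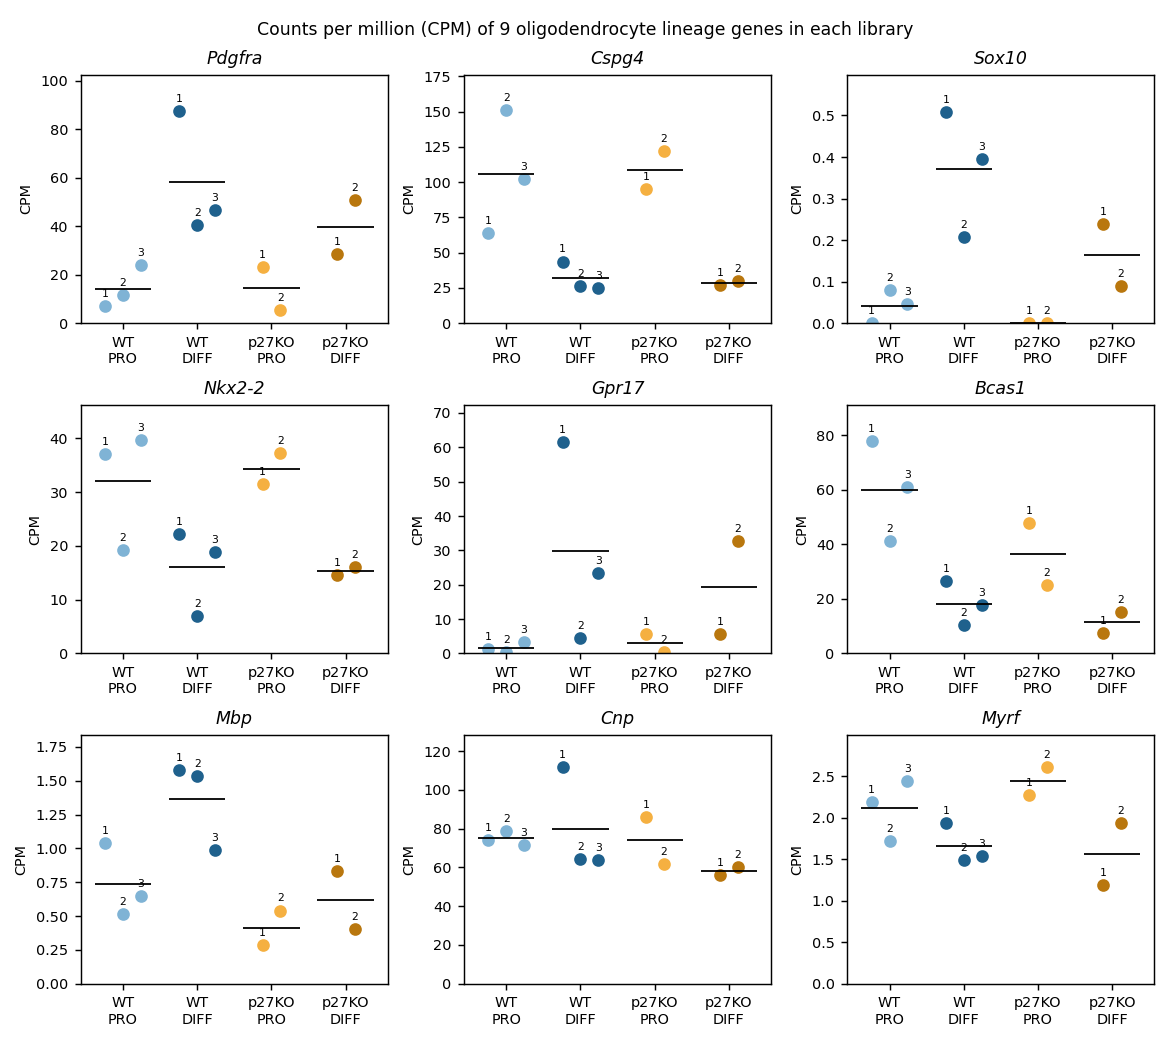
Level (CPM, linear axis from 0) of each of the 9 markers in the 10 libraries, by group. Each point is a library with its replicate number and each line is a group mean; Pdgfra and Gpr17 had higher means in DIFF, and Cspg4, Nkx2-2 and Bcas1 had lower means in DIFF.

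Pdgfra (ENSMUSG00000029231, chr5:75152292-75198215, plus strand, GRCm38) was at 7.14, 11.6 and 24.0 CPM in WT PRO libraries 1 to 3 and at 87.4, 40.6 and 46.6 CPM in WT DIFF libraries 1 to 3. In the libraries labelled p27KO it was at 23.3 and 5.46 CPM in PRO and at 28.6 and 50.9 CPM in DIFF. In both genotypes every DIFF library was higher than every PRO library, and WT DIFF 1 stood highest of all. Group means were 14.2 ± 8.75 CPM (n = 3) and 58.2 ± 25.5 CPM (n = 3) in WT, and 14.4 ± 12.6 CPM (n = 2) and 39.7 ± 15.8 CPM (n = 2) in p27KO. The receptor gene rose 4.03-fold in WT (log2 fold change 2.01, SE 0.61, edgeR quasi-likelihood adjusted p = 0.017). In bulk RNA, more cells of a type and more RNA per cell cannot be told apart, nor can fewer cells and less RNA per cell.

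The log2 fold change of Pdgfra in WT stayed between 1.63 and 2.62 over its alternatives, but its adjusted p crossed the threshold in some. It was 0.0537 without WT PRO 1 (log2 fold change 1.70), 0.0588 without WT PRO 2 (1.88) and 0.0623 without WT DIFF 1 (1.63), while without WT PRO 3 the rise was 6.13-fold. With PRO and DIFF libraries of the same number paired as a replicate block the adjusted p was 0.0873 (log2 fold change 2.06), and with no filter on low counts it was 0.0855 (1.93; range over its alternatives 0.00559 to 0.0873). In p27KO the log2 fold change was 1.44 (SE 0.74, adjusted p = 0.126), with 2.81 and an adjusted p of 0.0249 without p27KO PRO 1, and 0.76 and 0.41 without p27KO PRO 2 (range of the adjusted p 0.0249 to 0.41). The difference between the changes of the genotypes was −0.58 on the log2 scale (95% confidence interval −2.71 to 1.56).

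Cspg4 (ENSMUSG00000032911, chr9:56865033-56899870, plus strand), the other classical precursor gene, went the opposite way. It was at 64.1, 151 and 103 CPM in WT PRO and at 43.8, 26.6 and 25.1 CPM in WT DIFF. In the libraries labelled p27KO it was at 94.98 and 122 CPM in PRO and at 26.96 and 29.7 CPM in DIFF. All DIFF libraries lay below all PRO libraries, across genotypes as well. The proteoglycan gene was 3.36-fold lower in WT DIFF (log2 fold change −1.75, SE 0.32, adjusted p = 0.00106) and 3.91-fold lower in p27KO DIFF (−1.97, SE 0.39, adjusted p = 0.00246), and it passed the test in each alternative tried. The difference between these changes was −0.22 on the log2 scale (95% confidence interval −1.33 to 0.90).

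Nkx2-2 (ENSMUSG00000027434, chr2:147177546-147194243, minus strand), a homeodomain factor of the ventral neural tube and of differentiating precursors, was at 37.2, 19.3 and 39.7 CPM in WT PRO and at 22.2, 7.004 and 18.9 CPM in WT DIFF. In p27KO Nkx2-2 was at 31.5 and 37.2 CPM in PRO and at 14.5 and 16.1 CPM in DIFF. The WT groups overlapped, because WT PRO 2 lay below WT DIFF 1, whereas the p27KO groups did not. Each WT DIFF library lay below the WT PRO library of the same number. The fall in WT was 2.02-fold (log2 fold change −1.02, SE 0.40, edgeR adjusted p = 0.0474). In p27KO the log2 fold change was −1.20 (SE 0.49, adjusted p = 0.0626), and the difference between the genotypes was −0.18 (95% confidence interval −1.60 to 1.24).

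Both values for Nkx2-2 lay close to the threshold of 0.05. In WT the adjusted p was 0.119 without WT PRO 1, 0.14 without WT PRO 3, 0.0702 without WT DIFF 2 and 0.0735 without WT DIFF 3. It was 0.0597 without p27KO PRO 1 or p27KO PRO 2, and 0.0625 without p27KO DIFF 1 or p27KO DIFF 2 (range over its alternatives 3.0e-04 to 0.14). With no filter it was 0.134, with the WT libraries fitted alone 0.0781 and with the replicate block 3.0e-04. In p27KO Nkx2-2 passed the test without WT PRO 2 (adjusted p = 0.0412) and without WT DIFF 2 (0.0105). It also passed by DESeq2 (0.0162), with the p27KO libraries fitted alone (0.00112) and with the replicate block (7.7e-04; range 7.7e-04 to 0.193), although p27KO libraries of the same number were not alike.

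Sox10 (ENSMUSG00000033006, chr15:79154908-79165240, minus strand), which encodes a factor required for terminal differentiation of oligodendrocytes, had 0, 2 and 1 counts in WT PRO and 10, 5 and 10 counts in WT DIFF. In p27KO it had 0 and 0 counts in PRO and 6 and 2 counts in DIFF. Every DIFF library held more or as many counts as any PRO library, at levels of at most 0.509 CPM. Summed over the groups, the WT level was 7.96-fold higher in DIFF (95% counting interval 2.43 to 41.2). In p27KO, 8 counts in DIFF stood against 0 in PRO, a ratio whose 95% counting interval starts at 1.60. These intervals cover counting error only. Without the filter the adjusted p was 0.0209 in WT and 0.0442 in p27KO.

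Gpr17 (ENSMUSG00000052229, chromosome 18, minus strand), which encodes a receptor of committed precursors, was at 1.25, 0.319 and 3.37 CPM in WT PRO and at 61.6, 4.39 and 23.5 CPM in WT DIFF. In p27KO Gpr17 was at 5.66 and 0.443 CPM in PRO and at 5.79 and 32.7 CPM in DIFF. The DIFF libraries of each genotype were above its PRO libraries, by a small margin between WT PRO 3 and WT DIFF 2 and between p27KO PRO 1 and p27KO DIFF 1. The SD was close to the mean in each group, with 1.65 ± 1.56 and 29.8 ± 29.1 CPM in WT (n = 3 each) and 3.05 ± 3.69 and 19.3 ± 19.1 CPM in p27KO (n = 2 each). The rise in WT was 18.0-fold (log2 fold change 4.17, SE 1.30, edgeR adjusted p = 0.0201).

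Single libraries moved the size of the Gpr17 rise. It was 39.1-fold without WT PRO 3 (adjusted p = 0.0344) and 8.58-fold without WT DIFF 1 (adjusted p = 0.0744). The adjusted p was 0.0622 without WT PRO 1 and 0.0615 without WT PRO 2, 0.0637 with the replicate block and 0.0867 with no filter (range over its alternatives 0.00218 to 0.0867). In p27KO the log2 fold change was 2.60 (SE 1.46, adjusted p = 0.16). It was 5.37 without p27KO PRO 1, 1.75 without p27KO PRO 2, 3.37 without p27KO DIFF 1 and 0.89 without p27KO DIFF 2. The difference between the genotypes was −1.57 (95% confidence interval −5.92 to 2.79), so the data place little limit on it.

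Bcas1 (ENSMUSG00000013523, chr2:170346991-170427845, minus strand), a gene of newly formed and early myelinating oligodendrocytes, was at 77.9, 41.2 and 61.0 CPM in WT PRO and at 26.5, 10.3 and 17.6 CPM in WT DIFF. In p27KO Bcas1 was at 47.7 and 25.0 CPM in PRO and at 7.57 and 15.3 CPM in DIFF. Within each genotype all DIFF libraries were below all PRO libraries. Bcas1 and Gpr17, both used as markers of the committed stage, therefore moved in opposite directions in WT. The fall of Bcas1 was 3.35-fold in WT (log2 fold change −1.75, SE 0.42, edgeR adjusted p = 0.00552), and it passed the test in each alternative tried. In p27KO the fall was 3.23-fold (−1.69, SE 0.52, adjusted p = 0.0218). There the adjusted p was 0.123 without p27KO PRO 1, 0.124 without p27KO DIFF 1 and 0.085 with no filter (range 6.0e-04 to 0.124). The difference between the genotypes was 0.05 (95% confidence interval −1.45 to 1.56).

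Mbp (ENSMUSG00000041607, chromosome 18, plus strand), which encodes myelin basic protein, had 20, 13 and 14 counts in WT PRO and 31, 37 and 25 counts in WT DIFF. In p27KO it had 7 and 11 counts in PRO and 21 and 9 counts in DIFF. As CPM, WT PRO 1 at 1.04 CPM exceeded WT DIFF 3 at 0.988 CPM, and the p27KO groups overlapped too. The summed WT level was 1.89-fold higher in DIFF by counting error alone (95% interval 1.32 to 2.74), but without the filter Mbp did not pass the test across libraries (adjusted p = 0.179). In p27KO the ratio was 1.56 (0.844 to 2.98). The annotated Mbp gene includes long transcripts that start well upstream of the myelin transcripts, and counts per gene do not separate them.

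Cnp (ENSMUSG00000006782, chr11:100574904-100591729, plus strand), which encodes the myelin enzyme CNPase and is also transcribed in precursors, was at 74.4, 79.0 and 71.8 CPM in WT PRO and at 112, 64.4 and 64.1 CPM in WT DIFF. In p27KO Cnp was at 86.1 and 62.0 CPM in PRO and at 55.9 and 60.2 CPM in DIFF. WT DIFF 1 lay above all WT PRO libraries and the other WT DIFF libraries lay below them. The log2 fold change was 0.08 in WT (SE 0.21, 95% confidence interval −0.38 to 0.54, adjusted p = 0.745). In p27KO it was −0.37 (SE 0.25, adjusted p = 0.23), and without WT DIFF 1 Cnp passed the test there (adjusted p = 0.0464; range over its alternatives 0.0464 to 0.718). The difference between the genotypes was −0.45 (95% confidence interval −1.18 to 0.28).

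Myrf (ENSMUSG00000036098, chr19:10208272-10240748, minus strand), the regulator of myelin genes, was low throughout. It was at 2.19, 1.72 and 2.44 CPM in WT PRO, at 1.93, 1.49 and 1.54 CPM in WT DIFF, at 2.27 and 2.61 CPM in p27KO PRO and at 1.19 and 1.93 CPM in p27KO DIFF. The WT groups overlapped and the p27KO groups did not. The log2 fold change was −0.37 in WT (SE 0.25, adjusted p = 0.221) and −0.67 in p27KO (SE 0.31, adjusted p = 0.0844). Without p27KO DIFF 2 Myrf passed the test in p27KO (adjusted p = 0.0431; range 0.0431 to 0.416). The difference between the genotypes was −0.31 on the log2 scale.

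**Figure D2:**
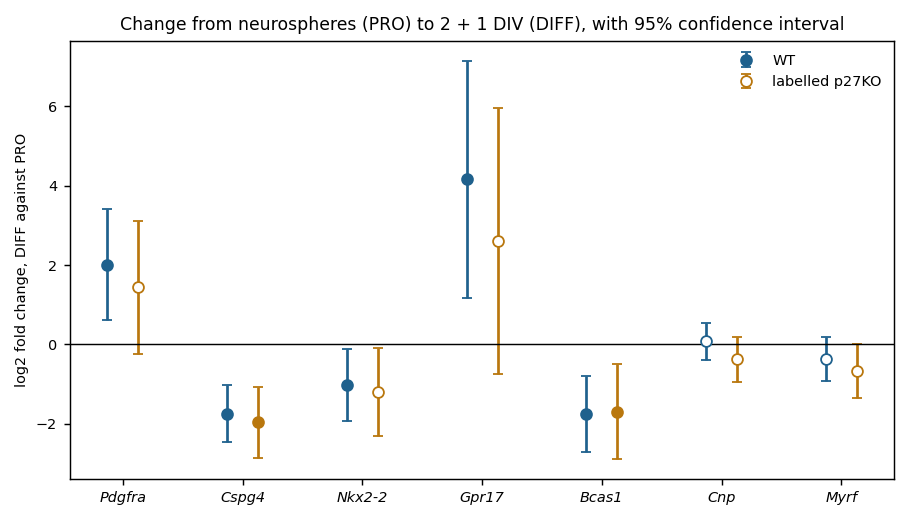
Log2 fold change of DIFF against PRO with its 95% confidence interval for the 7 markers tested, in WT (3 against 3 libraries) and in libraries labelled p27KO (2 against 2). Filled points passed the edgeR test at an adjusted p of 0.05; the interval of Gpr17 in WT runs from 1.18 to 7.15 and that of Cspg4 from −2.47 to −1.03.

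The question of whether loss of p27 alters these markers was addressed by comparing genotypes within each state and by testing the difference of the changes. The change differed between genotypes for 0 of the 7 markers tested by edgeR, with 0 at an unadjusted p under 0.05 and 0 by DESeq2. Over all 12859 genes the counts were 50 (0.389%) by edgeR, 554 at an unadjusted p under 0.05 and 157 by DESeq2. At 2 + 1 DIV 0 of the 7 markers tested differed by edgeR, against 2.04% of all genes, with 0 at an unadjusted p under 0.05 (1901 of all genes) and 0 by DESeq2 (631 of all genes). With p27KO libraries of different numbers paired as a block, a choice made after seeing the data, 1 marker differed there. That fit also ties WT to p27KO libraries through a shared replicate number, a link that no label gives. Nothing is therefore concluded from it. In neurospheres 0 of the 7 differed by edgeR, against 0.0156% of all genes, again with 0 at an unadjusted p under 0.05 (603 of all genes) and 0 by DESeq2 (40 of all genes). At 2 + 1 DIV all 7 log2 fold changes of p27KO against WT were negative, from −0.05 for Nkx2-2 to −0.65 for Bcas1, with −0.45 for Cnp (95% confidence interval −0.97 to 0.08). Without WT DIFF 1 they were 0.15 for Cspg4, 0.26 for Nkx2-2, 0.05 for Myrf and 0.49 for Gpr17. Without p27KO DIFF 1 they were 0.015 for Nkx2-2, 0.23 for Myrf and 0.155 for Gpr17, and without WT DIFF 3 the value of Nkx2-2 was 0.08. They ran from −0.70 for Bcas1 to 0.96 for Gpr17 in neurospheres. That they did not pass the test does not show that the levels were equal. Mbp, fitted without the filter, had a log2 fold change of −1.09 at 2 + 1 DIV (95% confidence interval −2.14 to −0.04, unadjusted p = 0.0419, edgeR adjusted p = 0.586), and Sox10 one of −1.09 (adjusted p = 0.859).

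Compared per kb of merged exon, the markers spanned a wide range. In WT PRO the order of mean levels was Cnp (20.6 ± 1.01 CPM per kb), Bcas1 (15.9 ± 4.85), Nkx2-2 (11.1 ± 3.86) and Cspg4 (8.88 ± 3.65). Much lower came Pdgfra (1.42 ± 0.873 CPM per kb), Gpr17 (0.317 ± 0.301), Myrf (0.247 ± 0.0432), Mbp (0.0868 ± 0.0323) and Sox10 (0.0138 ± 0.0131). Within 1 SD of each mean, neighbours overlapped from Cnp to Cspg4 and from Pdgfra to Myrf. Cspg4 and Pdgfra did not, nor did Myrf, Mbp and Sox10 among each other.

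In WT DIFF the order per kb was Cnp (22.0 ± 7.56 CPM per kb), Pdgfra (5.81 ± 2.54), Gpr17 (5.74 ± 5.60), Nkx2-2 (5.59 ± 2.79), Bcas1 (4.81 ± 2.14) and Cspg4 (2.67 ± 0.869). From Pdgfra to Cspg4 neighbours did not differ beyond their SD, whereas Cnp stood above Pdgfra. Myrf (0.193 ± 0.0283 CPM per kb), Mbp (0.161 ± 0.0387) and Sox10 (0.121 ± 0.0499) stayed at the lower end, each overlapping its neighbour. Cnp thus held the highest level per kb in both states, while Myrf and Mbp stayed among the lowest, although all of them are linked to myelin. The merged exons of Mbp include long upstream transcripts, which enlarges the length that its level is divided by.

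In the libraries labelled p27KO, Cnp was also highest per kb in both states, with 20.3 ± 4.67 CPM per kb in PRO and 16.0 ± 0.830 in DIFF. In p27KO PRO it was followed by Nkx2-2 (11.96 ± 1.40 CPM per kb), Bcas1 (9.62 ± 4.25), Cspg4 (9.10 ± 1.61) and Pdgfra (1.44 ± 1.26). In p27KO DIFF it was followed by Nkx2-2 (5.32 ± 0.38 CPM per kb), Pdgfra (3.96 ± 1.57), Gpr17 (3.71 ± 3.67), Bcas1 (3.03 ± 1.45) and Cspg4 (2.38 ± 0.164). Gpr17 (0.587 ± 0.71 CPM per kb), Myrf (0.285 ± 0.0276) and Mbp (0.0490 ± 0.021) came last in p27KO PRO, where Sox10 was at 0. Myrf (0.182 ± 0.0615 CPM per kb), Mbp (0.0730 ± 0.0357) and Sox10 (0.0537 ± 0.0343) came last in p27KO DIFF. Cnp stood apart from Nkx2-2 by more than the SD in both states, and Nkx2-2, Bcas1 and Cspg4 overlapped in PRO.

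**Figure D3:**
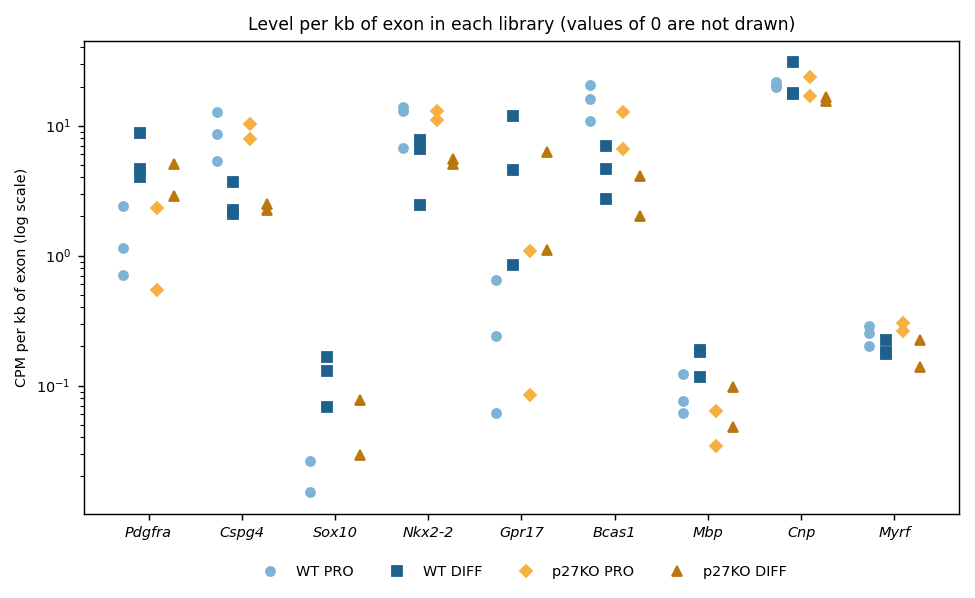
Level per kb of merged exon (CPM per kb, log axis) of the 9 markers in each of the 10 libraries; values of 0 are not drawn. Each point is a library, and Cnp had the highest group means while Sox10 and Mbp lay at the lower end.

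Replicates of WT DIFF differed together. WT DIFF 1 was the highest of the 3 WT DIFF libraries for 9 of the 9 markers, whereas it was the highest for 40.7% of all genes tested. WT DIFF 2 was the lowest for 6 of the 9, and for 39.7% of all genes. Among the p27KO DIFF libraries, number 2 was the higher for 7 of the 9 markers and for 54.7% of all genes. This tally was chosen after the values were seen, and what sets the libraries apart was not tested.

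Profiles over the 10 libraries were compared as the root mean square (RMS) distance between log2 CPM values, each gene centred on its own mean. Among the markers, Myrf and Cnp lay closest (0.31), followed by Nkx2-2 and Myrf (0.53) and by Nkx2-2 and Bcas1 (0.62), while Pdgfra and Gpr17, which both rose in WT, were 1.04 apart. Of 12857 genes, those closest to Pdgfra were 2610035D17Rik (0.42) and Gm16638 (0.44), and those closest to Gpr17 were Slc1a1 (0.73) and Dcx (0.82). Closest to Cspg4 were Fbn1 and Matn2, to Nkx2-2 Kcnv1 and Megf6, and to Bcas1 Eya2 and Pllp. Myrf was closest to Adgra2 and Abcc1, and Cnp to B230217C12Rik and Aplp1.

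Several markers share exon sequence with a gene on the other strand, and since the strand use of the counting is not given, reads of the partners cannot be told apart there. Gpr17 shares 188 bases with Lims2, which was at 0.0521, 0.120 and 0.507 CPM in WT PRO and at 3.66, 0.705 and 2.06 CPM in WT DIFF. Lims2 was thus high in the same libraries as Gpr17. Nkx2-2 shares 278 bases with Nkx2-2os, which was at 0.417, 0.399 and 0.277 CPM in WT PRO and at 3.61, 0.456 and 1.502 CPM in WT DIFF, while Nkx2-2 itself fell. Cnp shares 154 bases with Dnajc7, which lay between 154 and 180.1 CPM in all libraries. The antisense genes of Pdgfra and Bcas1 stayed at or below 0.369 CPM.

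Lists of other genes of the lineage were examined beside the markers. Among 22 early progenitor genes, 18 were tested, and in WT 6 rose and 6 fell (33.3% each, against 33.5% and 33.9% of all genes tested). In p27KO 5 rose and 7 fell (27.8% and 38.9%, against 27.5% and 30.2% of all genes), so these shares were near those of all genes. The medians were −0.07 in WT and −0.34 in p27KO, beside −0.00 and −0.03. The largest rises in WT were those of the matrix gene Tnr (log2 fold change 1.58), Lrrn1 (1.05), Sox8 (1.01) and Sox5 (0.83). The largest falls were those of the chondroitin sulfate enzyme genes Chst11 (−2.11) and Xylt1 (−2.04), and of Olig2 (−1.53) and Olig1 (−0.94). The adjusted p of Tnr was 0.0538 without WT PRO 1, 0.0552 without WT PRO 2, 0.0573 with the replicate block and 0.0874 with no filter (range over its alternatives 0.00651 to 0.0874), and its log2 fold change was 0.98 without WT DIFF 1. Olig1 and Olig2 thus fell together with Cspg4, Nkx2-2 and Bcas1.

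Among 15 genes of committed and newly formed oligodendrocytes, 10 were tested. In WT 5 rose and 3 fell (50% and 30%, against 33.5% and 33.9% of all genes tested). In p27KO 4 rose and 2 fell (40% and 20%, against 27.5% and 30.2%), or 1 fell without p27KO DIFF 2. The medians were 0.01 and 0.11. Prom1 (log2 fold change 1.49 in WT), Tns3 (1.33), Gpr37 (1.30) and Sirt2 (0.83) rose, and the Src family kinase gene Fyn (−0.96), Itpr2 (−0.59) and Cnksr3 (−0.36) fell.

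Of 29 genes of myelin and mature oligodendrocytes, 17 were not tested for want of counts. Of the 12 tested, 6 rose and 3 fell in WT, against 33.5% and 33.9% of all genes tested. In p27KO 3 rose and 4 fell, 25% and 33.3% against 27.5% and 30.2% of all genes, and the medians were 0.04 and 0.07. Without WT DIFF 1, 5 fell in WT and 5 rose in p27KO. Without WT DIFF 3, 2 fell in WT. Fewer rose in p27KO without p27KO PRO 2, a fit that left a single library in that group. Among those named, Aspa (log2 fold change 2.55), Nfasc (1.93) and Cmtm5 (1.47) rose in WT. Anln (−2.90), Sept4 (−1.44) and Pllp (−1.24) fell. The adjusted p of Aspa was 0.0598 without WT PRO 3 and 0.0647 without WT DIFF 2 (range over its alternatives 1.6e-04 to 0.0864). Its log2 fold change was 1.57 without WT DIFF 2 and 3.79 without WT PRO 2. The adjusted p of Pllp was 0.0507 without WT PRO 1 and 0.0504 without WT DIFF 3 (range 5.4e-04 to 0.0507).

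Anln was the only gene of the lists of lineage genes, maturation regulators and PDGF signalling to pass the edgeR test between genotypes in either state. It encodes anillin, a protein of the cytokinetic ring that is also found in myelin. It was at 102, 106 and 110.2 CPM in WT PRO, at 16.5, 13.3 and 13.2 CPM in WT DIFF, at 111 and 109 CPM in p27KO PRO and at 33.4 and 25.7 CPM in p27KO DIFF. At 2 + 1 DIV both libraries labelled p27KO lay above all WT libraries (log2 fold change 1.06, SE 0.13, edgeR adjusted p = 0.00274). With the DIFF libraries fitted alone the adjusted p was 0.0734 (range over its alternatives 4.8e-11 to 0.0734). The difference between its changes was 0.98 on the log2 scale (adjusted p = 0.0752).

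All 22 regulators of oligodendrocyte maturation were tested, and in WT 12 rose and 7 fell (54.5% and 31.8%, against 33.5% and 33.9% of all genes tested), with a median of 0.32. In p27KO 11 rose and 6 fell (50% and 27.3%, against 27.5% and 30.2%), with a median of 0.16. The largest rises in WT were those of Id4 (log2 fold change 5.97) and Id2 (2.79), which encode inhibitors of basic helix-loop-helix factors, of the Notch target Hes5 (2.88) and of Nfix (1.54). Hes1 (−2.02), the Notch ligand gene Jag1 (−0.94), Hdac2 (−0.74) and Hdac1 (−0.47) fell. The adjusted p of Jag1 was 0.0588 without WT PRO 3 (range over its alternatives 0.00253 to 0.0588). Of 12 genes of PDGF signalling, the pathway of the Pdgfra receptor, 9 were tested. The ligand genes Pdgfc (−0.75) and Pdgfa (−0.60) and the adaptor gene Shc1 (−0.50) fell in WT (33.3% of the 9, against 33.9% of all genes), and 2 genes fell in p27KO (22.2%, against 30.2%; 1 gene without p27KO PRO 2, without p27KO DIFF 1 or without p27KO DIFF 2). By edgeR 0 of the 9 rose in either genotype, against 33.5% of all genes in WT and 27.5% in p27KO, with 0 in each at an unadjusted p under 0.05. By DESeq2 1 rose in WT and 0 in p27KO, and with no filter, where more of the 12 were tested, 2 rose in WT and 3 in p27KO. The medians of the PDGF genes were −0.07 and −0.13.

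Sequence before a RefSeq transcript start is shown because Pdgfra rose, Cspg4 and Nkx2-2 fell and Cnp did not pass the test. Of the 9 markers, 4 matched the RefSeq promoter table (GRCm38.p6), and the 250 bases before each start were searched on both strands for ACAAAG and ACAATG, cores bound by SOX factors, and for CAGCTG and CATCTG, E-boxes bound by basic helix-loop-helix factors. ACAAAG occurs in 16.5%, ACAATG in 10.7%, CAGCTG in 13.0% and CATCTG in 14.4% of 32851 promoter windows of that length. Stretches that fall in annotated exons are not printed, which leaves chr5:75152001-75152250 (plus strand) for Pdgfra, chr9:56864854-56865032 (plus) for Cspg4, chr2:147186456-147186652 (minus) for Nkx2-2 and chr11:100574689-100574903 (plus) for Cnp. The Nkx2-2 stretch lies inside the annotated gene, before the start of a shorter transcript and within an intron of longer ones. Capitals mark a match. Pdgfra and Nkx2-2 hold a CATCTG, Cnp holds an ACAAAG and Cspg4 holds none of the 4 motifs, which is a description of the letters only.
Pdgfra: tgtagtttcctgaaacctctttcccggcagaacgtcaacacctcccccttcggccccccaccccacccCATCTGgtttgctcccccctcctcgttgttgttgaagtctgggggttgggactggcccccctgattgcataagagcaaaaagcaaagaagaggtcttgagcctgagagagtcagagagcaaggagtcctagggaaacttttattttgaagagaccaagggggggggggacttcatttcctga
Cspg4: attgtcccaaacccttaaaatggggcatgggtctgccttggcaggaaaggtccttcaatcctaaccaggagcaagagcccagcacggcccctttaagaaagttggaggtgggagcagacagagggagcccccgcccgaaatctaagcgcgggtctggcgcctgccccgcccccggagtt
Nkx2-2: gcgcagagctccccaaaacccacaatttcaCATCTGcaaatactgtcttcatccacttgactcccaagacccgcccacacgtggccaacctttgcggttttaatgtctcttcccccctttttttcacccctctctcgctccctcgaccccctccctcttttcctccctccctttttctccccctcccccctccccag
Cnp: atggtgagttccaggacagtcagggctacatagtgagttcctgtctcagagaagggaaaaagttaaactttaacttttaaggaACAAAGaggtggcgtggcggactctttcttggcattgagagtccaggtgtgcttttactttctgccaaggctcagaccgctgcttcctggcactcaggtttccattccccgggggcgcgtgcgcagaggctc

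Markers of other cell types moved with the change of state, and their part in the values above was not tested. Of 12 astrocyte markers 11 were tested, and 8 rose and 0 fell in each genotype (72.7% rose, against 33.5% of all genes in WT and 27.5% in p27KO), with medians of 1.63 in WT and 1.63 in p27KO. Gfap (log2 fold change 7.51 in WT), Aqp4 (6.44), Clu (5.01) and Gja1 (2.12) rose most, Gfap by 8.13 without WT PRO 3. Slc1a3 was the most abundant of the list. Summed, the astrocyte list reached 2024, 2155 and 2039 CPM in WT PRO, 6082, 6481 and 5840.3 CPM in WT DIFF, 2208 and 1856 CPM in p27KO PRO and 5818 and 5716 CPM in p27KO DIFF, so DIFF and PRO libraries did not overlap.

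Of 12 neuroblast and neuron markers 8 were tested. In WT 2 rose, Dcx (log2 fold change 4.61) and Tubb3 (1.29), which is 25% against 33.5% of all genes, and in p27KO Dcx and Tubb3 rose and Dlx1 fell, 25% and 12.5% against 27.5% and 30.2%. Tubb3 in p27KO (log2 fold change 1.241, adjusted p = 0.0411) did not pass without WT PRO 3, WT DIFF 3, p27KO PRO 2 or p27KO DIFF 2, with the replicate block or with no filter (range over its alternatives 0.0157 to 0.322), and its log2 fold change was 0.631 without p27KO DIFF 2. Summed, the neuronal list reached 1306, 1254 and 1494 CPM in WT PRO, 1506, 1608 and 1735 CPM in WT DIFF, 1872 and 1538 CPM in p27KO PRO and 2026 and 2159.9 CPM in p27KO DIFF. Map2 was the most abundant and Sp8 was at 0. Without Map2 the sum was 43.6, 35.6 and 28.4 CPM in WT PRO, 115, 70.8 and 69.8 CPM in WT DIFF, 35.6 and 36.7 CPM in p27KO PRO and 59.8 and 93.0 CPM in p27KO DIFF. Dcx was at 0.834, 0.279 and 3.18 CPM in WT PRO and at 55.9, 14.5 and 35.1 CPM in WT DIFF, so its order of libraries was that of Gpr17. Its log2 fold change in WT was 6.02 without WT PRO 3.

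Of 10 pericyte and mural markers 2 were tested, Acta2 (log2 fold change 4.50 in WT) and Notch3 (1.76), the most abundant. Both rose in each genotype, against 33.5% of all genes in WT and 27.5% in p27KO. Below 1 CPM in every library were 7 of the 10. The summed pericyte list was at 89.2, 84.3 and 64.0 CPM in WT PRO, 348, 273 and 290.4 CPM in WT DIFF, 70.0 and 108 CPM in p27KO PRO and 250.4 and 345 CPM in p27KO DIFF. Most of it was Notch3. Without Notch3 the sum was 3.02, 2.19 and 2.54 CPM in WT PRO and 30.0, 30.5 and 69.4 CPM in WT DIFF. In p27KO it was then 1.74 and 2.41 CPM in PRO and 37.7 and 99.3 CPM in DIFF. Of 8 fibroblast markers 2 were tested, of which in WT Pdgfrl rose (4.03) and Lama1, the most abundant, fell (−1.56). In p27KO Pdgfrl rose (3.64), and Lama1 did not pass the test (−0.795, adjusted p = 0.0536, range over its alternatives 0.00364 to 0.285), with −0.362 without p27KO DIFF 1 and −1.408 without p27KO DIFF 2. The fibroblast sum was 45.0, 49.9 and 31.4 CPM in WT PRO, 35.2, 27.9 and 29.9 CPM in WT DIFF, 39.6 and 38.3 CPM in p27KO PRO and 31.4 and 50.4 CPM in p27KO DIFF. PRO and DIFF overlapped in both genotypes. Without Lama1 the sum was higher in DIFF, with 2.03, 1.68 and 1.29 CPM in WT PRO, 20.1, 16.3 and 15.1 CPM in WT DIFF, 2.27 and 1.92 CPM in p27KO PRO and 17.4 and 21.1 CPM in p27KO DIFF. The endothelial list held Flt1, its most abundant gene, which fell (−3.71 in WT, or −2.79 without WT PRO 1 and −4.60 without WT DIFF 1), while Cldn5 and Cdh5 were at 0. The endothelial sum was 48.8, 12.4 and 15.3 CPM in WT PRO, 4.22, 1.57 and 1.46 CPM in WT DIFF, 34.7 and 21.1 CPM in p27KO PRO and 1.94 and 3.91 CPM in p27KO DIFF. Most of it was Flt1. Without Flt1 the sum was 1.04, 0.838 and 0.784 CPM in WT PRO and 0.356, 0.622 and 0.435 CPM in WT DIFF. In p27KO it was then 1.03 and 1.87 CPM in PRO and 0.714 and 0.719 CPM in DIFF. Of 6 ependymal markers 2 were tested and both rose in WT, Foxj1 (2.44), the most abundant, and Dynlrb2 (0.91), against 33.5% of all genes. The adjusted p of Dynlrb2 was 0.0905 without WT PRO 2, 0.104 without WT PRO 3, 0.0569 without WT DIFF 1 and 0.0669 without WT DIFF 2 (range over its alternatives 0.0117 to 0.104). The ependymal sum was 24.1, 18.99 and 16.3 CPM in WT PRO, 106, 89.3 and 88.7 CPM in WT DIFF, 17.9 and 20.7 CPM in p27KO PRO and 87.6 and 93.7 CPM in p27KO DIFF. Most of it was Foxj1, and without Foxj1 the sum was 4.33, 2.55 and 2.54 CPM in WT PRO, 3.77, 4.19 and 3.56 CPM in WT DIFF, 3.02 and 2.61 CPM in p27KO PRO and 3.21 and 3.01 CPM in p27KO DIFF.

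Of 8 Schwann and neural crest markers 1 was tested and did not pass. Dhh was the most abundant and Foxd3 was at 0. The Schwann cell sum was 21.7, 61.9 and 28.8 CPM in WT PRO, 9.52, 9.37 and 6.21 CPM in WT DIFF, 24.4 and 26.2 CPM in p27KO PRO and 7.10 and 5.58 CPM in p27KO DIFF. Without Dhh it was 10.1, 10.3 and 11.6 CPM in WT PRO, 8.80, 8.08 and 5.57 CPM in WT DIFF, 9.63 and 9.05 CPM in p27KO PRO and 6.42 and 5.13 CPM in p27KO DIFF. Of 8 microglia markers 0 passed the filter, their summed level stayed at or below 0.622 CPM in each library, with P2ry12 the most abundant, and C1qa and C1qb were at 0.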

How the data were processed

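From polyadenylated RNA the authors made cDNA with the Ovation RNA-seq System V2 and libraries with the Ovation Ultralow System V2. Per the labels, reads were processed with FastQC, Trimmomatic, cutadapt, STAR and RSEM, and the deposited values are RSEM expected counts per gene, in whole numbers and not normalized. Depth ranged from 19190068 to 25291674 counts per library. A gene below 1 CPM in 4 or more libraries was discarded, which left 12859 of 48795 genes. Genes low in 1 state or genotype were therefore not tested, and the rest were fitted with edgeR 4.0.16 (TMM, robust quasi-likelihood, 4 groups, two-sided) in R 4.3.3, with Benjamini-Hochberg adjustment over all genes tested and a threshold of 0.05. The steps were tested on simulated data. Gene positions and exon lengths are from GENCODE (GRCm38).

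The alternatives were DESeq2 1.42.0, its size factors, other filters, fits of the compared groups alone, a replicate block and leaving out each library. For comparisons of genotypes the block was a term for replicate number shared by WT and p27KO libraries, although no label links their numbers. The 9 markers and the lists were chosen with earlier results of these data known. Beyond the markers and label checks, named genes are the 4 largest rises and 4 largest falls in WT of each list among genes that passed with a mean of at least 1 CPM, list genes that passed between genotypes, the most abundant and absent markers of other cell types, and the 2 genes of nearest profile. A gene that this rule names is not reported here.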

Additional observations from a re-analysis of the deposited data

How the results depend on the processing

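Of 553 values of the markers' log2 fold changes under alternatives, 487 kept their direction and their side of the threshold. That count pools comparisons between genotypes that no marker passed, so it does not measure how stable the calls were. In WT the calls of Pdgfra, Gpr17 and Nkx2-2 were lost under several alternatives, as given at each gene. Those of Cspg4 and Bcas1 in WT held in each alternative. All 36 group levels moved by less than 1 SD with TMM-scaled library sizes. With no filter, 1 marker rose in WT and 1 in p27KO, in each case Sox10, which the filter leaves out, while Pdgfra and Gpr17 no longer passed in WT; 1 fell in p27KO, and Cnp in WT was −0.001. With the replicate block, 0 markers rose in WT. Between genotypes that block gives WT and p27KO libraries of equal number a common term, although no label links them. The values of p27KO against WT from it were −0.006 for Cspg4 and −0.11 for Cnp in neurospheres. At 2 + 1 DIV they were 0.23 for Nkx2-2 and 0.80 for Gpr17. WT libraries of the same number were alike (r 0.248, 0.301 and 0.395, across genes), whereas p27KO libraries were not (−0.138). Crossed p27KO pairs, chosen after seeing the data, gave 1 marker that rose in p27KO. With the term shared by WT and p27KO libraries they gave 1 that differed between genotypes at 2 + 1 DIV.

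Leaving out each library in turn, 0 to 2 markers rose in WT, 0 to 1 rose in p27KO and 1 to 3 fell in p27KO. The difference between the genotypes' changes ran from −1.25 to 0.80 for Pdgfra, −0.56 to 0.082 for Cspg4, −0.53 to 0.13 for Nkx2-2, −3.28 to 1.20 for Gpr17 and −0.53 to 0.57 for Bcas1. At 2 + 1 DIV p27KO against WT ran from −0.30 to 0.15 for Cspg4, −0.40 to 0.26 for Nkx2-2, −0.45 to 0.23 for Myrf and −2.33 to 0.49 for Gpr17. In neurospheres it ran from −1.34 to 0.72 for Pdgfra, −0.19 to 0.41 for Cspg4, −0.13 to 0.32 for Nkx2-2, −1.81 to 2.08 for Gpr17, −0.23 to 0.21 for Cnp and −0.19 to 0.10 for Cdkn1b. The change of Cnp in WT ran from −0.21 to 0.22.

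Over all genes, 50 passed the test of the difference between changes, against 157 by DESeq2, 79 with no filter, 29 with the replicate block and 66 with crossed pairs. At 2 + 1 DIV 246 genes were higher in p27KO, against 519 by DESeq2, 36 with the DIFF libraries fitted alone and 436 with crossed pairs. There 16 were lower, against 112 by DESeq2, 31 with no filter, 3 with the DIFF libraries alone, 38 with the replicate block and 88 with crossed pairs. In neurospheres 2 genes were higher and 0 lower, against 20 and 20 by DESeq2, 7 and 7 with no filter, and 4 and 5 with at least 1 CPM required in 4 libraries. Leaving out a library gave 0 to 88 genes whose change was more positive in p27KO, 94 to 248 higher and 5 to 34 lower at 2 + 1 DIV, and 1 to 3 higher and 0 to 3 lower in neurospheres. The cause was not tested. Where a group was left with 1 library, that library was assumed to vary like the other groups. Sox10 and Mbp were limited by depth, with at most 10 and 37 counts in a library.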

Other observations

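Some genes of the lineage fell outside the rule for naming and were chosen after their values were seen. Nkx6-2, a homeobox gene of myelinating cells, was not tested because of low counts in neurospheres. It was at 0.886, 0.718 and 0.507 CPM in WT PRO and at 10.9, 5.80 and 4.23 CPM in WT DIFF, and in p27KO at 0.661 and 0.295 CPM in PRO and at 10.1 and 8.004 CPM in DIFF. The DIFF libraries were above the PRO libraries in both genotypes.

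Trf, the gene for the iron carrier transferrin, which oligodendrocytes make, was at 13.5, 10.2 and 11.1 CPM in WT PRO and at 14.0, 4.14 and 1.23 CPM in WT DIFF. In p27KO it was at 55.3 and 37.7 CPM in PRO and at 4.40 and 3.96 CPM in DIFF. In neurospheres both p27KO libraries lay above all WT libraries, but the difference did not pass the edgeR test (log2 fold change 2.03, adjusted p = 0.945). From PRO to DIFF Trf fell in p27KO (log2 fold change −3.495, edgeR adjusted p = 0.0074). In WT its change did not pass (−0.876, adjusted p = 0.262). The difference between these changes, −2.619 on the log2 scale, did not pass the test either. Pdgfrb, the receptor gene of mural cells, was at 0.0521, 0.199 and 0.277 CPM in WT PRO and at 2.19, 3.03 and 3.72 CPM in WT DIFF, and in p27KO at 0 and 0.295 CPM in PRO and at 4.44 and 9.49 CPM in DIFF.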
